A study of Mus musculus with 31 samples.

Results

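The genes described are 10 that encode secreted proteins of elastic fibres and the glycoprotein matrix: Fn1, Postn, Mfap4, Eln, Fbn1, Fbn2, Fbln1, Fbln2, Fbln5 and Sparc. They were taken by symbol, and all 10 were found among the 38283 genes of both deposited expression tables. RNA had been sequenced from cells of the C57BL/6 mouse pancreas at postnatal day 2, sorted into a YFP-positive fraction, called mesenchymal, and a YFP-negative fraction, called non-mesenchymal. All animals carried the Cre recombinase under Nkx3.2, a gene of the mesenchyme that surrounds the developing gut and pancreas. In the H19DMD model, mutants were H19DMDfl/+; Nkx3.2+/Cre and controls H19DMD+/+; Nkx3.2+/Cre, where the deleted H19 region is known for silencing the growth factor gene Igf2 on the maternal chromosome, and the series' design names overexpression of Igf2 in the mesenchyme. In the Igf2 model, mutants were Igf2+/fl; Nkx3.2Cre/+ and controls Igf2+/+; Nkx3.2Cre/+. Values were at hand for 21 of 31 samples: 3 control and 4 mutant libraries of each fraction of the H19DMD model, and, for the Igf2 model, non-mesenchymal libraries only, of which 4 were controls and 3 mutants. Mesenchymal cells of the Igf2 model were not analysed here. The labels do not say whether a library came from 1 animal or a pool, so p-values measure the spread between these libraries.

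Elastic fibres form when tropoelastin, encoded by Eln, is deposited on microfibrils built from the fibrillins (Fbn1, Fbn2). Fibulins (Fbln1, Fbln2, Fbln5) and the microfibril-associated protein Mfap4 bind these parts and help to join them. Fibronectin (Fn1) is an early scaffold that cells assemble through integrins, periostin (Postn) is a matricellular protein of collagen-rich matrix, and Sparc is a collagen-binding glycoprotein found in matrix that is being remodelled. In the newborn pancreas, mesenchymal cells are regarded as the main source of such matrix.

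Because the 10 genes differed together between the sorted fractions, the 250 bases before the start of transcription are shown for Postn, Fbln1 and Fbln5. RefSeq (GRCm38.p6) gave a window for 6 of the genes, and these 3 are the ones whose window holds no annotated exon of the gene itself. Capitals mark matches, on either strand, to the TATA box word TATAAA, to the GC box word GGGCGG and to the word CCAAT. No match overlapped another.
Postn, chr3:54360857-54361106, plus strand: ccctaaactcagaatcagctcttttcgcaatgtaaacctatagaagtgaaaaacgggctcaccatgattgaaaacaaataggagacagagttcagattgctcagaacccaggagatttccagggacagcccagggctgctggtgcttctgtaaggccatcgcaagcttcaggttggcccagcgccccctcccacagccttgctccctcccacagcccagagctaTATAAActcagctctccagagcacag
Fbln1, chr15:85205699-85205948, plus strand: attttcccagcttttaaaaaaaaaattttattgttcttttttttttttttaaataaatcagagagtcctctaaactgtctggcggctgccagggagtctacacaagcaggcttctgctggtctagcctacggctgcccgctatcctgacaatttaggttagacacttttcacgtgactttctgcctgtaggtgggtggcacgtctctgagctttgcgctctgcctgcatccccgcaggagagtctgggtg
Fbln5, chr12:101819120-101819369, minus strand: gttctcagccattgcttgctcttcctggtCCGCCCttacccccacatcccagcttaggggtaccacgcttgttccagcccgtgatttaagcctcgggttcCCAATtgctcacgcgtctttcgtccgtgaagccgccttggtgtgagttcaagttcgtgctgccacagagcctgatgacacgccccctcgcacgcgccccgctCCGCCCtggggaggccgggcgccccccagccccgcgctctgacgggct
The Postn window holds TATAAA from 26 bases before the start, a word present in 12.4% of 32851 RefSeq windows of the same length. The Fbln5 window is 65.2% G and C, against a median of 52.4% over all windows, and holds the GC box in its reverse complement at 221 and 48 bases and CCAAT at 150 bases before the start. GGGCGG occurred in 32.7% and CCAAT in 33.8% of all windows. The Fbln1 window, 46.4% G and C, holds none of these words. TGACTCA (AP-1), present in 4.46% of all windows, and GGAATG (TEAD), present in 12.6%, occur in none of the 3.

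All 10 genes are protein-coding and lie, in build GRCm38, at separate places: Fn1 (ENSMUSG00000026193) on chromosome 1 from 71585522 to 71662843, Fbn1 (ENSMUSG00000027204) on chromosome 2 from 125300593 to 125507993, and Postn (ENSMUSG00000027750) on chromosome 3 from 54361108 to 54391034. Eln (ENSMUSG00000029675) lies on chromosome 5 from 134703780 to 134747241, Fbln2 (ENSMUSG00000064080) on chromosome 6 from 91212454 to 91272540, and Sparc (ENSMUSG00000018593) and Mfap4 (ENSMUSG00000042436) on chromosome 11 from 55394499 to 55420080 and from 61485430 to 61494406. Fbln5 (ENSMUSG00000021186) is on chromosome 12 from 101746564 to 101819055, Fbln1 (ENSMUSG00000006369) on chromosome 15 from 85205948 to 85286535, and Fbn2 (ENSMUSG00000024598) on chromosome 18 from 58008622 to 58209926. Exons of 5 of them share bases with a gene on the other strand in GENCODE M21: 292 bases of Fn1 with Apol7d, 89 of Mfap4 with Mapk7, 267 of Eln with Gm30003, 2442 of Fbn1 with Gm9913 and 129 of Fbn2 with Gm26507. The use of strand in counting is not given in the sources used here, so reads in these stretches cannot be assigned to one gene. Gm9913 was at most 3.31 FPKM in any library, and Apol7d ranged from 9.25 to 42.9 FPKM in control and from 7.23 to 15.1 FPKM in mutant mesenchymal libraries. Mapk7 was 3.06 to 10.1 FPKM in non-mesenchymal controls of the H19DMD model, where Mfap4 was 1.35 to 7.48 FPKM. In those of the Igf2 model Mapk7 was 5.18 to 16.9 FPKM and Mfap4 5.65 to 9.78 FPKM. In mesenchymal libraries Mapk7 was at most 15.2 FPKM and Mfap4 at least 215 FPKM. The part of Mapk7 reads in the Mfap4 values was not tested.

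Levels are given as FPKM, which scales reads by transcript length and by library, so that genes can be compared per length. FPKM values hold no read counts. The steps between the lowest values gave relative depths that spanned 1.87-fold in the H19DMD model and 2.51-fold in the Igf2 model. Markers checked the sort: 10 of 10 mesenchymal markers tested were higher in mesenchymal cells of controls, 7 of 7 acinar, 8 of 8 endocrine, 6 of 8 epithelial or ductal, 7 of 7 leukocyte, 3 of 4 neural and 4 of 5 erythroid markers were lower. Markers of smooth muscle and pericytes (7 of 7) and of mesothelium (6 of 6) were also higher in the mesenchymal fraction, as were 3 of 8 endothelial markers. All marker lists were chosen with earlier results of these data known, which limits this check. As a check of the genotype, H19 was 28.6% of the control level in mesenchymal cells with the H19DMD deletion (limma adjusted p = 0.0458), and Igf2 was 1.83 times the control level, at 6162 to 7923 FPKM against 3648 to 4024 FPKM (adjusted p = 0.927). In the Igf2 model the deleted gene had values only in the non-mesenchymal fraction, at 25.0 to 146.5 FPKM in mutants and 71.5 to 144 FPKM in controls. Since libraries hold RNA of many cells, fewer cells of a type and less RNA per cell cannot be told apart in any comparison.

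In mesenchymal cells the 10 genes spanned a wide range of levels, with Sparc and Postn far above the rest. Sparc was 2179.9, 2489 and 2269.7 FPKM in the 3 control libraries. Postn was 979, 1191 and 1017 FPKM. The microfibril genes Mfap4 (281 to 321 FPKM) and Fbn1 (175 to 247 FPKM) came next. Fn1 followed at 137 to 167 FPKM and Fbln2 at 97.3 to 145 FPKM, and the ranges of these 2 overlapped. Fbn2, the fibrillin best known from development, was 62.9 to 79.9 FPKM and overlapped Fbln1 at 55.6 to 76.1 FPKM. Eln was lower, at 29.5, 30.8 and 52.0 FPKM. Fbln5, which tethers tropoelastin to microfibrils and to cells, was lowest at 8.45, 13.1 and 12.1 FPKM. All other neighbours in this order were separated in every library. The sum of the 10 genes was 4106 to 4629 FPKM, of which Sparc held 53.2% ± 0.53 (SD, n = 3) and Postn 24.4% ± 1.2 (SD, n = 3).

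The same order of means held in the mutant mesenchymal libraries, where more neighbours overlapped. Sparc was 2283, 2108, 1429 and 1559 FPKM and Postn 1181, 954, 1214 and 971 FPKM. Eln varied most between replicates there, at 27.2, 58.8, 13.1 and 25.7 FPKM, a coefficient of variation of 62.4% against 12.6% for the steadiest gene, Postn. Mfap4 was 215 to 340.4, Fbn1 129 to 217, Fbn2 41.6 to 79.99, Fbln1 47.0 to 73.5 and Fbln5 6.43 to 10.05 FPKM.

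Non-mesenchymal controls of the H19DMD model had a different order. Sparc led at 143 to 171 FPKM, followed by Fn1 and Postn, whose ranges overlapped, and then by Fbln2, Mfap4, Fbln1 and Fbn1, each overlapping its neighbour. Eln, Fbln5 and Fbn2 were lowest, at means of 1.31, 0.784 and 0.608 FPKM, with overlapping ranges. In those of the Igf2 model Sparc (247 to 417 FPKM) was followed by Postn (27.0 to 60.3 FPKM), with a range apart from that of Fn1, and Eln, at a mean of 9.75 FPKM, lay between Fbln2 and Mfap4, overlapping both. Fbn2 and Fbln5 were lowest, at 1.78 and 1.08 FPKM.

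**Figure D1:**
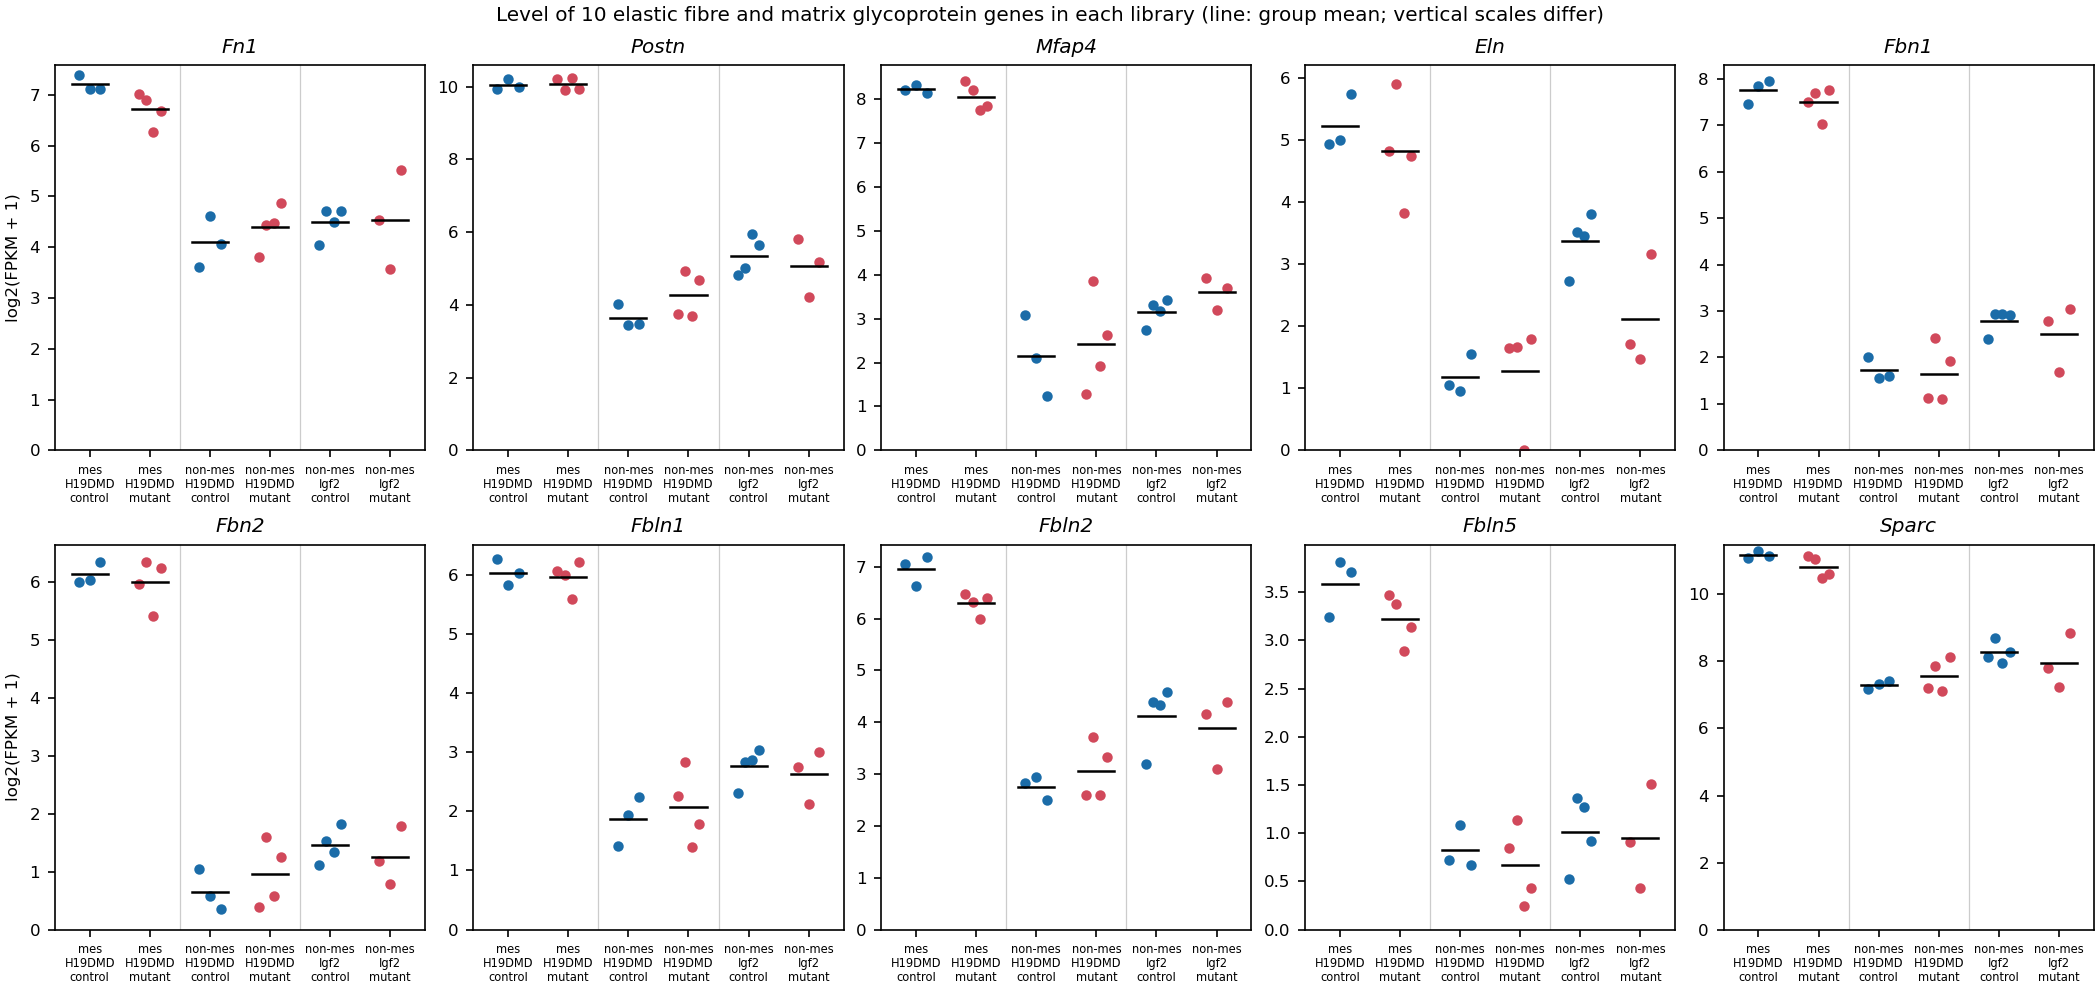
Points show log2(FPKM + 1) of each gene in each of the 21 libraries (blue, controls; red, mutants), and horizontal lines show the group means. Each of the 10 genes is higher in every mesenchymal library than in any non-mesenchymal library of the H19DMD model, whereas mutants and controls of a fraction mostly overlap. Vertical scales differ between panels, and Eln is listed at 0 in 1 non-mesenchymal library.

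The contrast of mesenchymal with non-mesenchymal cells asks how far each gene belongs to the sorted mesenchyme. All 10 genes were higher in mesenchymal cells of controls, from 8.72-fold for Fn1 to 113.5-fold for Fbn2 as ratios of mean FPKM. With limma and Benjamini-Hochberg adjustment over 16732 genes, 10 of 10 passed at an adjusted p of 0.05, where 12.4% of all genes tested passed as higher. The 10 genes were chosen with earlier results of these data known. Shares of all genes are therefore given for scale and not as a test of the set. The median log2 difference was 4.19 for the 10 genes and 0.08 for all genes tested. Every mesenchymal library lay above every non-mesenchymal library for all 10 genes, which held for 22.4% of all genes. The exact permutation p was 0.1 for each gene, the smallest that 3 against 3 libraries can give (two-sided). In mutants, 10 of 10 genes passed again, where 13.5% of all genes passed as higher, and 10 of 10 did not overlap, against 14.4% of all genes (exact permutation p = 0.0286 for each, the smallest possible). All 10 genes met the minimum mean of 1 FPKM, Fbln5 in both genotypes and Fbn2 in controls through their mesenchymal level. Both fits tested log2(FPKM + 1), a scale that understates differences of low genes.

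Postn, Mfap4, Fbn1 and Fbn2, a matricellular protein and 3 components of microfibrils, had the 4 highest ratios of mean FPKM in controls. Postn was 15.3, 9.85 and 10.05 FPKM in non-mesenchymal controls, 90.6-fold below the mesenchymal mean, with a log2 difference of 6.41 ± 0.22 (SE, limma adjusted p = 7.92e-05). For Fbn1 the non-mesenchymal values were 3.03, 1.94 and 2.03 FPKM, a 93.2-fold difference (log2 difference 6.03 ± 0.22). Mfap4 was more variable, at 7.48, 3.29 and 1.35 FPKM, and differed 73.9-fold (log2 difference 6.09 ± 0.46). Fbn2 was 1.06, 0.491 and 0.273 FPKM, close to the added 1, so its log2 difference of 5.47 ± 0.24 is smaller than its 113.5-fold ratio implies. In these 4 genes the non-mesenchymal level was 0.881 to 1.35% of the mesenchymal level. The corresponding share was 0.935% for Col1a1, 0.920% for Col1a2 and 0.906% for Col3a1, the main fibrillar collagens, which were chosen after their values were seen. Among the 11 mesenchymal markers, which include these collagens, the share ranged from 0% for Nkx3-2 and Barx1 to 16.4% for Vim. The share was 0.458% for Pdgfra and 1.99% for Pdgfrb. That of Vim was above the share of each of the 10 genes.

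The other 6 genes kept more of their level in the non-mesenchymal fraction. Fn1 was 11.2, 23.7 and 15.8 FPKM there, 11.5% of the mesenchymal mean, with a log2 difference of 3.10 ± 0.28 (limma adjusted p = 0.000897). Sparc was 143, 161 and 171 FPKM, 6.84% of the mesenchymal mean, and differed by 3.86 ± 0.17 on the log2 scale. Sparc thereby held 77.3% ± 3.1 (SD, n = 3) of the summed FPKM of the 10 genes in non-mesenchymal controls, a larger share than in any mesenchymal library. The fibulins were 2.74 (Fbln1), 5.78 (Fbln2) and 0.784 FPKM (Fbln5) on average, with ratios of 23.8, 21.6 and 14.3. Eln was 1.07, 0.936 and 1.92 FPKM, a 28.6-fold difference. The 95% interval of the log2 difference was 2.41 to 3.80 for Fn1 and 5.87 to 6.94 for Postn, and these did not overlap. Endothelial cells are known to make Sparc and Fn1 as well. Beside these values, the summed level of the 8 endothelial markers was 17.8 to 44.4 FPKM in non-mesenchymal and 86.9 to 96.6 FPKM in mesenchymal controls, and none of the 8 was at 0 in all libraries of a group. The part of these cells in the remaining Sparc and Fn1 was not tested.

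**Figure D2:**
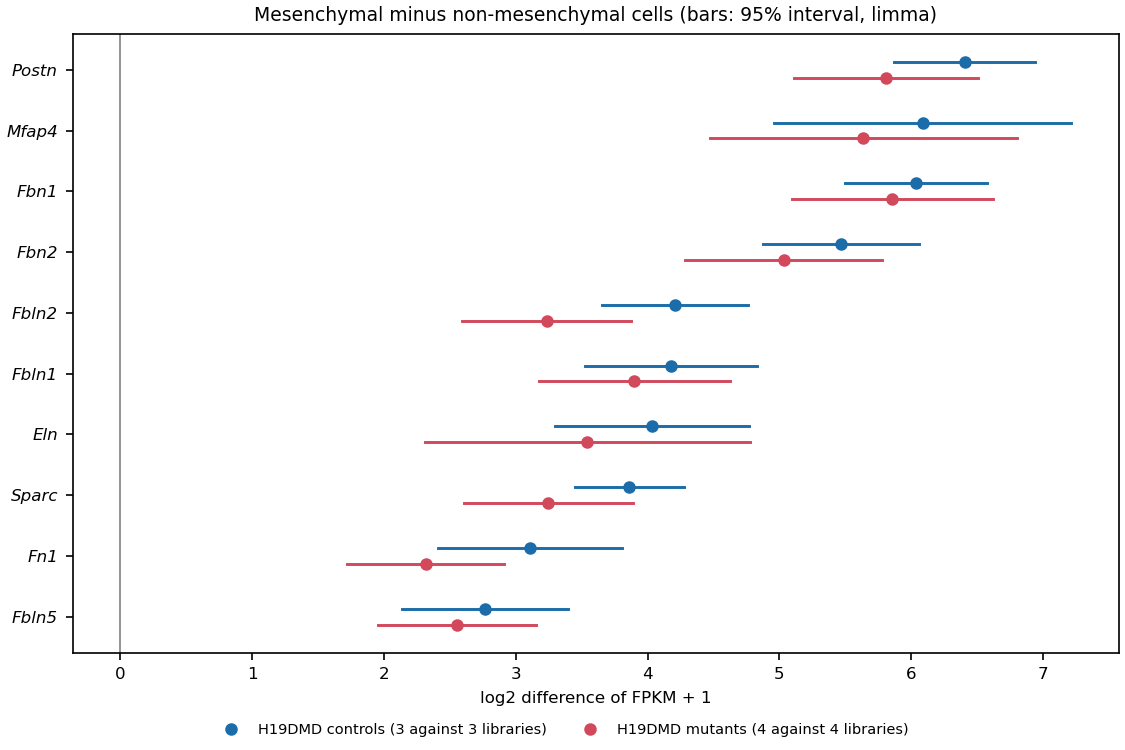
Points give the log2 difference of FPKM + 1 between mesenchymal and non-mesenchymal cells for each gene, with 95% intervals from limma, in H19DMD controls (blue, 3 against 3 libraries) and mutants (red, 4 against 4). All intervals lie above 0, and Postn, Mfap4, Fbn1 and Fbn2 stand highest in both genotypes, Postn at 6.41 in controls and 5.81 in mutants.

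The mutant libraries, which are separate from the controls, gave the same 4 genes the 4 largest ratios: 77.4 for Fbn1, 61.1 for Fbn2, 55.1 for Postn and 47.1 for Mfap4. Mfap4 was 13.6 FPKM in non-mesenchymal mutant library 2 and 1.42 to 5.17 FPKM in the others, and without that library its ratio was 86.4. In controls, leaving out non-mesenchymal library 1 moved the ratio of Mfap4 to 128.7 and that of Fbn2 to 180.9. Over all libraries left out in turn, the ratios of these 4 genes ranged from 55.5 to 180.9 in controls and from 37.6 to 107 in mutants, and those of the other 6 were at most 37.3 and 23.8. Fn1 had the smallest ratio again, at 5.11. The place of Fbn2 in the order of fitted log2 differences depended on the added constant. With 0.1 in place of 1 it was highest in controls (6.76). With 10 it was 2.89 in controls, below Sparc (3.79) and Fbln2 (3.08), and 2.72 in mutants, below Sparc (3.18). Postn, Mfap4 and Fbn1 stayed above the other 6 genes with each of these constants in both genotypes.

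Further genes of elastic fibre assembly showed the same direction. Of 17 tested, 14 were higher in mesenchymal cells of controls and 0 lower (median log2 difference 3.12). The highest were Mfap5 (6.50), a microfibril glycoprotein, Lox (4.94), the lysyl oxidase that cross-links elastin and collagen, and Mfap2 (4.48), another microfibril glycoprotein. The latent TGF-beta binding proteins Ltbp2 (0.76, adjusted p = 0.236) and Ltbp1 (1.24, adjusted p = 0.00363) and the microfibril-associated Thsd4 (1.32, adjusted p = 0.0540) had the smallest differences. Of 23 other matrix glycoproteins tested, 19 were higher and 1 lower (median 2.77), with the Sparc relative Sparcl1 (5.66), the basement membrane linker Nid1 (5.34) and Smoc2 (4.86) highest. Smoc1 fell on the other side, lower in mesenchymal cells by a log2 difference of -3.15 ± 0.30 (SE), and the matricellular genes Cyr61 (-0.98) and Ctgf (-0.47) did not pass in controls. In mutants 17 of 23 were higher and 3 lower, the latter being Smoc1 (-3.43), Cyr61 (-1.63, limma adjusted p = 0.000893) and Ctgf (-1.33, adjusted p = 0.0389). Matrix receptors were mixed, with 5 of 9 higher and 2 lower. Itga8 (3.67), Itga5 (2.44), the fibronectin receptor subunit, and Itgb3 (2.16) were higher, whereas Itga4 (-2.66), an integrin subunit of leukocytes, and the syndecan Sdc4 (-1.75) were lower, and Itga9 (0.35) did not pass.

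Genes whose profile was most like that of a member were sought over the 14 H19DMD libraries, among 17105 genes, each centred on its own mean log2(FPKM + 1). For Eln the nearest were Rcn3, Aebp1 and Thbd, at root mean square differences of 0.33, 0.41 and 0.41 log2 units. For Fn1 they were Pdpn (0.25), Kirrel (0.28) and Vim (0.28), and for Sparc Ssc5d (0.22), Thbd (0.24) and Lhfpl2 (0.25). All these libraries share the difference between the fractions, which enters every distance.

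Whether the H19DMD deletion changed these genes in mesenchymal cells was compared in 4 mutant and 3 control libraries. None of the 10 genes passed the threshold, where 0.0694% of all 15856 genes did, and 1 of the 10 (Fbln2) and 755 of all genes had an unadjusted p under 0.05. In 9 of 10 genes the mutant mean of log2(FPKM + 1) was below the control mean, with a median difference of -0.30, where the median over all genes was -0.066. This count and the median of -0.30 depended in part on mutant library 3, the lowest of its group for 9 of the 10 genes. Fbln2, a fibulin of microfibrils and basement membranes, was 88.4, 78.3, 62.3 and 82.7 FPKM in mutants and 132, 97.3 and 145 FPKM in controls. All mutant libraries lay below all controls, with a log2 difference of -0.67 ± 0.20 (SE), an exact permutation p of 0.0286, the smallest possible, and a limma adjusted p of 0.927. Fn1 was 129, 119, 76.0 and 102 FPKM in mutants and 167, 138 and 137 FPKM in controls. Its groups did not overlap either, with a log2 difference of -0.49 ± 0.22 (SE), an exact permutation p of 0.0571 and a limma adjusted p of 0.927. Groups without overlap and with lower mutants were thus seen for 2 of the 10 genes and for 3.77% of all genes.

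For the other 8 genes the groups overlapped. Sparc differed by -0.35, with a 95% interval of -0.90 to 0.19, and Postn by 0.02, with an interval of -0.41 to 0.45. Fbn1, Fbn2, Fbln1 and Mfap4 had differences of -0.26 to -0.071, Eln of -0.40 (interval -1.53 to 0.73) and Fbln5 of -0.37 (interval -0.92 to 0.18). Mutant library 3 was the lowest of the 4 for 9 of the 10 genes, Postn being the exception. Without it, the differences of Fbn2 and Fbln1 turned to 0.057 and 0.057 and that of Postn to -0.039, and Fn1 was at -0.34, the weakest value over the libraries left out in turn. Eln was at -0.064 without mutant library 3, -0.14 without control library 3 and -0.76 without mutant library 2. Fbln2 ranged from -0.84 to -0.55 over those fits.

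Other cell markers moved with these groups. The 6 mesothelial markers summed to 92.2 to 149 FPKM in mutant and 139.7 to 317 FPKM in control mesenchymal libraries. Of the 6, 0 passed the threshold, 4 had an unadjusted p under 0.05, 5 had a difference below 0, and the median log2 difference was -1.14. Smooth muscle and pericyte markers summed to 147 to 747 FPKM in mutants and 483 to 820.5 FPKM in controls, with 0 of 7 past the threshold, 6 below 0 and a median of -0.79. Epithelial or ductal markers summed to 17.9 to 43.8 FPKM in mutants and 44.9 to 95.2 FPKM in controls, without overlap, with 0 of 6 past the threshold. Endocrine markers summed to 31.6 to 121 FPKM in mutants and 54.2 to 219 FPKM in controls, with 0 of 6 past it, 1 at an unadjusted p under 0.05, 6 below 0 and a median of -0.45. The part of these cells in the Fbln2 and Fn1 values was not tested. The 11 mesenchymal markers summed to 4546 to 5934 FPKM in mutants and 5070 to 5949 FPKM in controls. Of the further matrix genes, 0 of 18 of elastic fibre assembly, 0 of 22 other glycoproteins and 0 of 9 receptors passed in this comparison, with 0, 1 and 0 at an unadjusted p under 0.05.

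**Figure D3:**
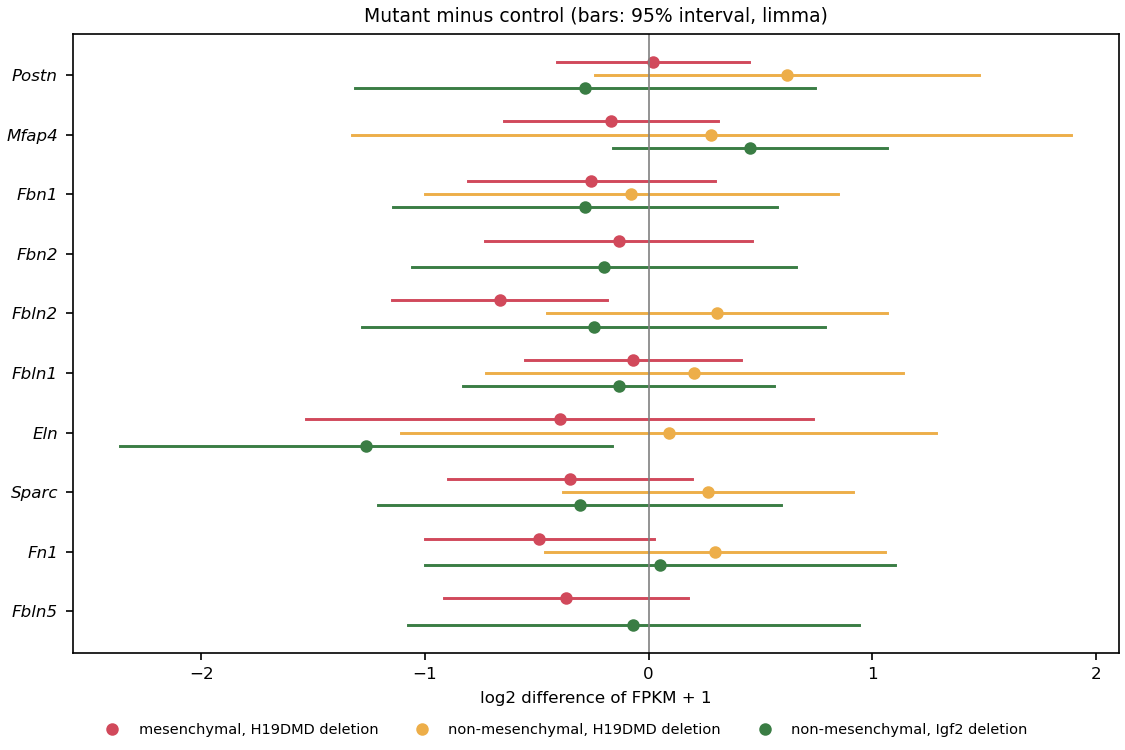
Points give the log2 difference of FPKM + 1 between mutants and controls for each gene in 3 comparisons, with 95% intervals from limma. Only the interval of Fbln2 in mesenchymal cells with the H19DMD deletion and that of Eln in non-mesenchymal cells of the Igf2 model exclude 0, and neither passed after adjustment over all genes. Fbn2 and Fbln5 have no value in non-mesenchymal cells of the H19DMD model because their mean was under 1 FPKM.

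In non-mesenchymal cells of the H19DMD model the genes showed no difference that passed, and mutants and controls overlapped for all 10. Fbn2 and Fbln5 averaged under 1 FPKM and were not tested. Of the remaining 8, 0 passed and 0 had an unadjusted p under 0.05, where 0.0677% of all 16239 genes passed and 868 had such a p, and the groups of 5.68% of all genes did not overlap. Among these 8, 7 had a difference above 0 and the median was 0.27, where the median over all genes was 0.05. Signs of 4 of the 8 depended on single libraries: Mfap4 was -0.20 and Fbln1 -0.053 without mutant library 2, Fbn1 0.10 without mutant library 3, and Eln -0.082 without mutant library 4. These are the furthest values with the sign turned, and each of these genes also turned without another library. The count of 7 above 0 and the median of 0.27 thus depended in part on single libraries, mutant library 2 among them. Postn had the largest, at 12.5, 29.3, 11.8 and 24.8 FPKM in mutants against 15.3, 9.85 and 10.05 FPKM in controls, a log2 difference of 0.62 with a 95% interval of -0.24 to 1.48. Sparc was 146, 232, 138 and 277 FPKM in mutants, a difference of 0.27 with an interval of -0.38 to 0.91, and of 0.084 without mutant library 4. Mutant libraries 2 and 4 were high for both genes, and libraries 1 and 3 lay in or near the control range. Eln was 2.12, 2.17 and 2.46 FPKM in mutant libraries 1, 2 and 4 and listed at 0 in library 3. In the tables an exact 0 also occurs among genes with a median above 10 FPKM in their group. There were 300 such genes in these mutants, and 0 of the listed genes were among them. The median of Eln was 2.15 FPKM in this group, and whether its 0 is a failed estimate was not tested. Without library 3 the difference of Eln was 0.52, and with library 3 it was 0.09. Among the other mutant values, Fn1 was 13.1 to 28.3, Fbln2 5.03 to 12.1, Mfap4 1.42 to 13.6, Fbln1 1.62 to 6.16 and Fbn1 1.15 to 4.35 FPKM. Fbn2 was 0.316 to 2.01 FPKM in mutants and Fbln5 0.186 to 1.19 FPKM. Beside these values, endocrine markers summed to 10709.8 to 20119 FPKM in mutants and 19448 to 29331 FPKM in controls. Of these, 0 of 8 passed the threshold, 3 had an unadjusted limma p under 0.05 and 7 were below 0, with a median of -0.35. Erythroid markers summed to 152 to 1706 FPKM and 123 to 437 FPKM. Of these, 0 of 6 passed, 3 had an unadjusted p under 0.05 and 6 were above 0, with a median of 1.71. Epithelial or ductal markers summed to 1303 to 2302 FPKM in mutants and 1127 to 1769.6 FPKM in controls, with 0 of 8 past the threshold, 8 above 0 and a median of 0.42. Leukocyte markers summed to 268 to 514 FPKM and 365 to 565 FPKM, with 0 of 7 past it, 2 at an unadjusted p under 0.05 and a median of -0.46. Of 6 mesenchymal markers tested, 0 passed and 5 were above 0, with a median of 0.21. The part of these cells was not tested. Of the further matrix genes, 0 of 15, 0 of 19 and 0 of 8 passed.

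The effect of the deletion did not differ between the fractions beyond the threshold for any of the 10 genes, where 0.0117% of 17105 genes passed. All 10 interaction estimates were below 0, from -0.97 for Fbln2 to -0.18 for Fbn1. Those of Mfap4 and Fbn1 turned to 0.032 and 0.080 without non-mesenchymal mutant library 2, that of Mfap4 to 0.0036 without non-mesenchymal control library 3, and that of Fbln5 to 0.053 with an added constant of 0.1. Their median was -0.47, where the median over all genes was -0.11. That of Fbln2 was -0.97 ± 0.39 (SE), with a limma adjusted p of 0.755, and that of Fn1 was -0.79 ± 0.40 (SE), with an adjusted p of 0.812. Median-ratio scaling moved the median over all genes to -0.0057. An unadjusted p under 0.05 was seen for 1 of the 10 genes, Fbln2, and for 1087 of all genes.

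Deletion of Igf2 in the mesenchyme left 0 of the 10 genes past the threshold in non-mesenchymal cells, where 0.0631% of 17441 genes passed. An unadjusted p under 0.05 was seen for 1 of the 10, Eln, and for 921 of all genes. The groups overlapped for all 10 genes, and 6.02% of all genes had groups that did not. Eln had the largest difference, at 2.27, 1.76 and 7.93 FPKM in mutants and 5.61, 10.5, 9.91 and 13.01 FPKM in controls. Mutant libraries 1 and 2 lay below all controls and library 3 within their range. The log2 difference was -1.26 ± 0.47 (SE), with an exact permutation p of 0.0857, an unadjusted limma p of 0.0296 and an adjusted p of 0.919. Mfap4 was 14.3, 8.24 and 11.97 FPKM in mutants and 5.65, 8.90, 8.001 and 9.78 FPKM in controls, a difference of 0.45 with a 95% interval of -0.16 to 1.07. Sparc was 222, 150.5 and 458 FPKM in mutants and 281, 417, 247 and 311 FPKM in controls, a difference of -0.31 with an interval of -1.21 to 0.59. For the other members the mutant range reached from below the lowest control to inside or above the control range. Fn1 was 10.8 to 44.7 FPKM in mutants and 15.4 to 25.3 in controls, Postn 17.5 to 54.8 and 27.0 to 60.3, and Fbn1 2.22 to 7.28 and 4.26 to 6.65. Fbln2 was 7.59 to 19.9 and 8.16 to 22.9 FPKM, Fbln1 3.38 to 6.99 and 3.94 to 7.24, Fbn2 0.732 to 2.43 and 1.17 to 2.52, and Fbln5 0.344 to 1.86 and 0.435 to 1.57. Over the 10 genes 8 differences were below 0, with a median of -0.22, and the median over all genes was -0.028. Mutant library 2 was lowest for 10 of 10 genes, and without it the differences of 7 genes turned positive, between 0.028 for Fbn2 and 0.19 for Fbln5. The difference of Eln was -0.94 without mutant library 2, -1.79 without mutant library 3 and -0.51 with an added constant of 10. The acinar markers moved with these groups: they summed to 79952 to 92048 FPKM in mutants and 27469 to 39422 FPKM in controls, without overlap, with 0 of 8 past the threshold, 5 at an unadjusted p under 0.05 and 7 above 0. Epithelial or ductal markers summed to 1250.4 to 1545 FPKM in mutants and 1643 to 1927 FPKM in controls, also without overlap, with 0 of 8 past the threshold and 8 below 0. Leukocyte markers summed to 701 to 1238 FPKM in mutants and 480 to 704 FPKM in controls, with 0 of 7 past it and 7 above 0. Erythroid markers summed to 594 to 1757 FPKM and 724 to 4042 FPKM, with 0 of 6 past it and 6 below 0. The 3 most abundant genes of a library held 74.2 to 82.5% of its summed FPKM in mutants and 60.5 to 75.5% in controls. The part of these markers and of the 3 genes in the values of the 10 was not tested. Of the further matrix genes, 0 of 16 of elastic fibre assembly, 0 of 21 other glycoproteins and 0 of 9 receptors passed.

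In some non-mesenchymal libraries most of the 10 genes lay on the same side of their group. Control library 1 of the Igf2 model was lowest of its 4 for 9 genes, mutant library 2 lowest of its 3 for 10 genes, and mutant library 2 of the H19DMD model highest of its 4 for 7 genes. In the non-mesenchymal controls of the H19DMD model the genes were more evenly spread, with 5, 5 and 3 of the 10 above the group mean in libraries 1, 2 and 3. The mesenchymal markers deviated to the same side on average: in 14 of 14 non-mesenchymal libraries the mean deviation of the 10 genes and that of the 11 mesenchymal markers from their group means had the same sign, and in the mesenchymal fraction in 3 of 7. In mutant library 2 of the Igf2 model these deviations were -0.67 and -0.43 log2 units, and in mutant library 2 of the H19DMD model 0.61 and 0.48. In non-mesenchymal control library 2 of the H19DMD model they were only 0.035 and 0.0066. Deviations from a group mean cancel within the group, so the signs are not independent of each other. A shift of all genes of a library was not tested. The summed mesenchymal markers were 149 to 254 FPKM in non-mesenchymal mutants and 158 to 195 FPKM in controls of the H19DMD model, and 204 to 413 and 194 to 363 FPKM in the Igf2 model. Endothelial markers differed between the libraries of the Igf2 model too. They summed to 15.3, 126.7, 54.5 and 65.0 FPKM in controls 1 to 4 and to 63.6, 30.5 and 124 FPKM in mutants 1 to 3. In non-mesenchymal H19DMD libraries they summed to 17.8, 37.3 and 44.4 FPKM in controls 1 to 3 and to 25.8, 29.0, 19.8 and 25.0 FPKM in mutants 1 to 4. The part of mesenchymal and endothelial cells in the spread of the 10 genes was not tested.

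**Figure D4:**
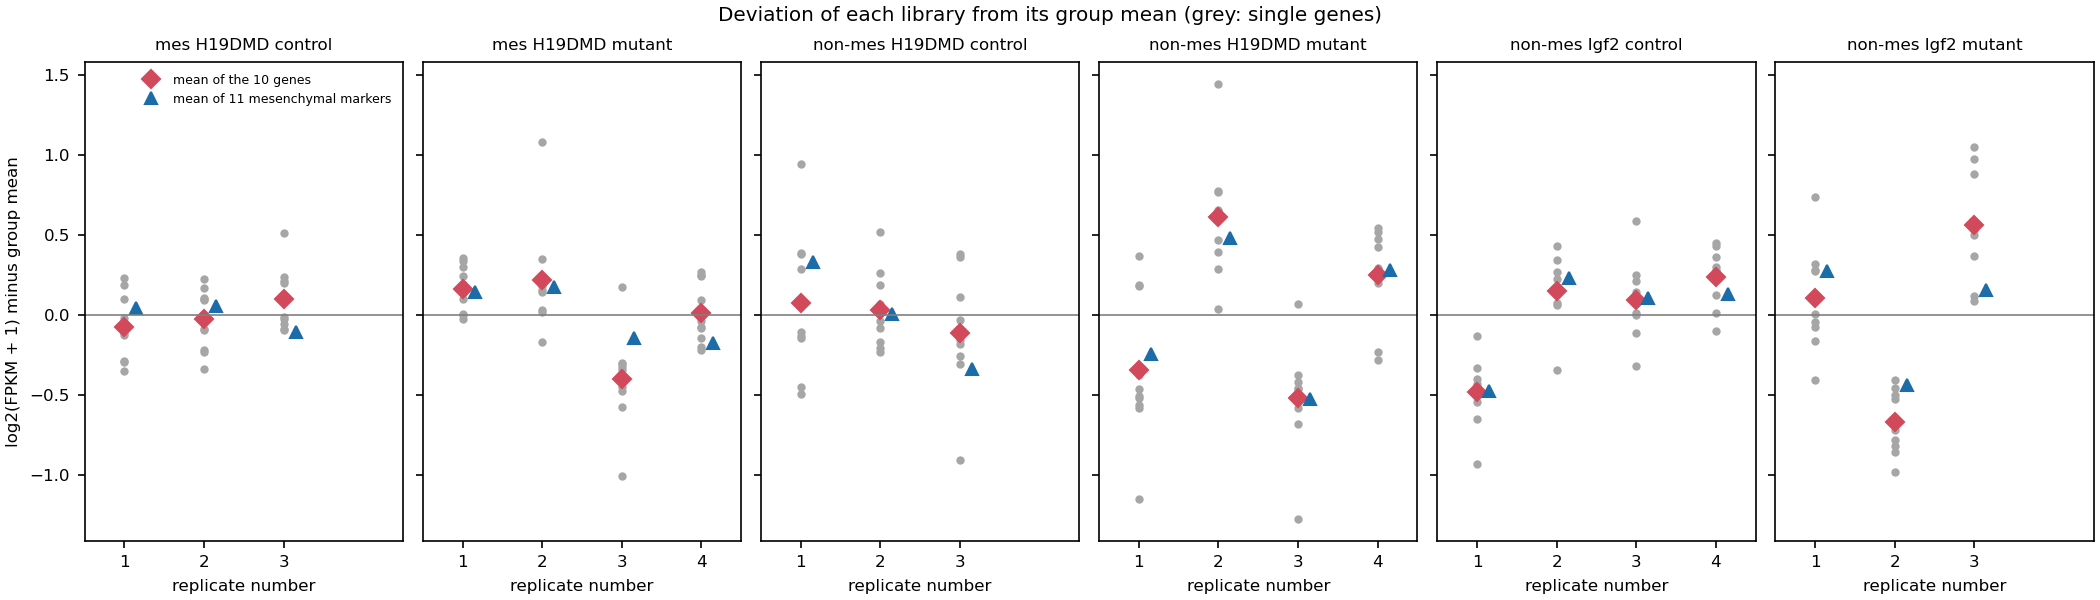
For each library, numbered by replicate, grey points give the deviation of each of the 10 genes from its group mean in log2(FPKM + 1), diamonds their mean, and triangles the mean deviation of 11 mesenchymal markers. Diamonds and triangles lie on the same side of 0 in 14 of 14 non-mesenchymal libraries and in 3 of 7 mesenchymal libraries.

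Non-mesenchymal controls of both models can be set side by side as levels only, because each model has its own table and its own prefix in the library names, and model, table and prefix cannot be told apart. Eln averaged 9.75 FPKM in the 4 controls of the Igf2 model and 1.31 FPKM in the 3 controls of the H19DMD model, a ratio of 7.44. Postn averaged 41.9 and 11.7 FPKM, Fbln2 17.6 and 5.78 FPKM, and Sparc 314 and 158 FPKM. The ranges lay apart, higher in the Igf2 model, for 7 of the 10 genes and for 17.2% of all genes, and those of Fn1, Mfap4 and Fbln5 overlapped. Endocrine markers summed to 5737 to 12340 FPKM in controls of the Igf2 model and 19448 to 29331 FPKM in those of the H19DMD model. Erythroid markers summed to 724 to 4042 and 123 to 437 FPKM, and smooth muscle and pericyte markers to 18.2 to 33.9 and 13.7 to 17.1 FPKM. Sums of mesenchymal markers overlapped, at 194 to 363 and 158 to 195 FPKM. The part of these cells was not tested.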

How the data were processed

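Sorted pancreatic cells were profiled by RNA-seq. Per the labels' protocols, total RNA was amplified with the Ovation RNA-seq System V2 and sequenced as single-end reads. The authors deposited FPKM values per gene and library, per the file headers, in 1 table for each model. The submitters' processing notes name TopHat2 2.0.8, Cufflinks 2.2.1 and GRCm38, and the annotation, use of strand and scaling between libraries are not given in the sources used here. FPKM gives no counts, so no count test, counting interval or absolute depth could be had.

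From these values log2(FPKM + 1) was computed, genes averaging 1 FPKM or more in the compared libraries were kept, and only the groups compared were fitted with limma 3.58.1 in R 4.3.3 (lmFit, eBayes with trend, two-sided). P-values were adjusted by Benjamini-Hochberg over all genes tested, with a threshold of 0.05. The fit was tested on simulated data. Exact permutation tests ran over all relabellings of libraries. Samples were grouped by title, and columns matched by library name. All 10 members were reported. For lists of elastic fibre assembly, other matrix glycoproteins and matrix receptors, the 3 highest and 3 lowest genes by the difference between fractions in controls were named. Lists of cell markers were given by counts and sums, for mesenchymal, acinar, endocrine, epithelial or ductal, endothelial, leukocyte, smooth muscle, mesothelial, neural and erythroid cells. Mesenchymal markers were also given singly, as the non-mesenchymal share of the mesenchymal level in controls. Members and lists were chosen with earlier results of these data known. Alternatives were the added constant, the filter, the scaling, the groups in the fit, the trend, a replicate block and leaving out each library. The Igf2 model's mesenchymal samples were not analysed here.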

Additional observations from a re-analysis of the deposited data

Results flagged for a closer look

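A single library stood far from the other 3 of its group for 2 of the genes, by Dixon's test at 95% on log2(FPKM + 1). Eln was listed at 0 in mutant library 3 of the non-mesenchymal H19DMD cells, where the others were 2.12 to 2.46 FPKM. Fbn1 was 4.26 FPKM in control library 1 of the non-mesenchymal Igf2 model, where the others were 6.56 to 6.65 FPKM. Groups of 4 libraries allowed 30 such tests, and chance flags about 1 in 20.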

How the results depend on the processing

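Between fractions, 10 of 10 genes passed in controls under all 15 alternatives. In mutants 10 passed under all but 1 of 17: with a minimum mean of 5 FPKM 9 passed, Fbln5 not being tested. In the other comparisons 0 genes passed under every alternative run, and the lowest adjusted p (limma) was 0.574. Of 650 such differences 35 changed sign, and the cause was not tested. In mesenchymal cells Fbln1 was 0.0084 with median-ratio scaling and Postn -0.082 with quantile normalization. With an added constant of 0.1, Eln in non-mesenchymal H19DMD cells was -0.34 and the Fbln5 interaction 0.053.

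Leaving out 1 library gave, in mesenchymal cells, -0.039 to 0.11 for Postn, -0.18 to 0.057 for Fbln1 and -0.25 to 0.057 for Fbn2, and without a change of sign -0.59 to -0.34 for Fn1, -0.84 to -0.55 for Fbln2, -0.76 to -0.064 for Eln, -0.29 to -0.068 for Mfap4, -0.40 to -0.097 for Fbn1, -0.55 to -0.26 for Fbln5 and -0.46 to -0.24 for Sparc. In non-mesenchymal H19DMD cells it gave -0.20 to 0.75 for Mfap4, -0.082 to 0.52 for Eln, -0.34 to 0.10 for Fbn1 and -0.053 to 0.43 for Fbln1, and without a change of sign 0.053 to 0.56 for Fn1, 0.40 to 0.81 for Postn, 0.090 to 0.46 for Fbln2 and 0.084 to 0.42 for Sparc. In the Igf2 model the ranges were -0.44 to 0.54 for Fn1, -0.65 to 0.14 for Postn, -0.56 to 0.12 for Fbn1, -0.47 to 0.028 for Fbn2, -0.32 to 0.12 for Fbln1, -0.56 to 0.14 for Fbln2, -0.23 to 0.19 for Fbln5 and -0.75 to 0.051 for Sparc, and without a change of sign -1.79 to -0.94 for Eln and 0.29 to 0.65 for Mfap4. Interactions ranged from -0.92 to 0.032 for Mfap4 and from -0.36 to 0.080 for Fbn1.

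All genes called numbered 3785 between fractions in controls and 2448 to 4448 under the alternatives, and in mutants 4802 and 3148 to 5418. For the mutant comparisons the number was 11 in each, and 5 to 27 (mesenchymal), 1 to 34 (non-mesenchymal H19DMD) and 2 to 37 (Igf2 model), and for the interaction 2 and 2 to 9. A fit of all groups together was not run for the interaction or the Igf2 model, where it equals the main one.

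Groups share replicate numbers, but the labels used here tie no number to 1 animal, litter or day. Across genes, deviations of same-numbered libraries correlated by -0.0506 to 0.0674, so the numbers were not taken to pair samples. With the replicate block, Eln in non-mesenchymal H19DMD cells was -0.082, and the genes called stayed at 10 between fractions and 0 elsewhere. All genes called with the block were 2660 and 4141 between fractions, and 7, 5 and 2 in the mutant comparisons. FPKM without counts give no measure of precision for low genes such as Fbn2 and Fbln5 in non-mesenchymal cells.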
